A study of Mus musculus with 12 samples.

Results

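The genes of glutathione, thioredoxin and antioxidant defence were chosen by symbol: glutathione transferases, glutathione peroxidases, peroxiredoxins, thioredoxins and their reductases, glutaredoxins, superoxide dismutases, the enzymes of glutathione synthesis, and 11 further genes given by name. The rule found 67 of the 24421 gene symbols in the count files. They were measured by RNA sequencing in Min6, a mouse insulinoma line labelled as pancreatic beta cells of WT genotype. All 12 samples were infected with an adenovirus for 48 h and received 0.3 mM palmitate (PA), a saturated fatty acid, for 24 h. In 6 samples the virus was sh-ctrl, the control, and in 6 it was sh-Il22ra1, made to knock down Il22ra1, a subunit of the interleukin-22 receptor. No sample without palmitate was analysed here, the sh-ctrl titles read GFP, and in 5 of the sh-Il22ra1 samples the treatment label counts up from Il22ra1 to a further number, so the sample titles set the groups.

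Glutathione is a small thiol that cells build from glutamate, cysteine and glycine and spend on peroxides (glutathione peroxidases) and on reactive organic compounds (glutathione transferases). Thioredoxin and the peroxiredoxins form a parallel relay that passes electrons from NADPH to hydrogen peroxide, and superoxide dismutases feed both by turning superoxide into peroxide. NRF2, the product of Nfe2l2, is held back by KEAP1 and switches on many of these genes through the antioxidant response element. Beta cells are known for low catalase and glutathione peroxidase.

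The antioxidant response element has the core TGACNNNGC, and the starts of the members were searched for it on both strands. The search was made after the fold changes were seen, and a part of the element in them was not tested. RefSeq promoter windows on GRCm38.p6, from 250 bases before to 50 bases after each transcript start, were at hand for 56 of the 67 members. Gclc, Gsr, Hmox1, Gstt2, Gsta4, Prdx6, Prdx6b, Msra, Sod3, Txnl1 and Gpx2-ps1 had no window and were not searched. The core was found in 10 of these 56 members (17.9%), against 14.0% of all 27025 genes with a window and 12.4% of all 32851 windows. The full sequence TGACTCAGC, which also holds the AP-1 motif TGACTCA, was found in 1 member, Prdx1, and in 0.503% of all genes. The 29-base stretches around the core in 5 members that rose, in Gclm, which fell, and in Sod1, which did not pass the test, are printed 5′ to 3′ on the strand that reads TGACNNNGC, with the core in capitals.
Nfe2l2, chr2:75704885-75704913: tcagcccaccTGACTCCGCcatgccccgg
Prdx1, chr4:116685456-116685484: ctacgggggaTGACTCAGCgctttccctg
Txnrd1, chr10:82859104-82859132: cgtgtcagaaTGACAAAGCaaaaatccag
Srxn1, chr2:152105542-152105570: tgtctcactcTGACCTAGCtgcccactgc
Gstm5, chr3:107895802-107895830: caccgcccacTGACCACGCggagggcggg
Gclm, chr3:122245413-122245441: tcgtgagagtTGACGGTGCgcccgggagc
Sod1, chr16:90220696-90220724: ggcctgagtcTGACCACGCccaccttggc
The cores of Nfe2l2 and Gstm5 read on the gene's own strand and the other 5 on the opposite strand. The core of Nfe2l2 was centred 236 bases before the transcript start, that of Prdx1 129 and that of Gstm5 38, while the core of Srxn1 lay 32 bases after it. The core of Txnrd1 lay 88 bases before an internal transcript start, 25255 bases downstream of the annotated start of the gene. A match describes these letters only, and a searched member without a match may carry the element outside the window. The other matches were in Gstm7, which did not pass the test, and in Gsta3 and Mgst1, which had too few reads to be tested.

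Reads in genes ranged from 13108494 to 15887448 per library. Il22ra1 itself had 7 to 20 reads in each sh-ctrl library and 1 to 4 in each sh-Il22ra1 library, and the groups did not overlap. With so few reads Il22ra1 did not pass the filter on low counts and was not tested. The 12 beta cell markers were all detected, with 7 lower and 1 higher in sh-Il22ra1, where 26.5% and 25.4% of all tested genes were so. The 6 leukocyte markers summed to 18.5 to 27.2 CPM in sh-ctrl and 5.83 to 9.64 CPM in sh-Il22ra1, nearly all of it Cd68 (Ptprc at most 0.274 CPM). Endothelial markers did not fall, at 3.51 to 7.77 CPM in sh-ctrl and 5.14 to 7.54 CPM in sh-Il22ra1. Summed fibroblast markers went from 3.09 to 6.57 CPM in sh-ctrl to 1.29 to 2.13 CPM in sh-Il22ra1, acinar markers stayed at or under 1.04 CPM with Prss2 and Amy2a5 at 0, and the alpha cell sum (782 to 1460 CPM), also lower in sh-Il22ra1, was mostly Ttr and Gcg. Reads without an alignment took 12.8% to 17.3% of each sh-ctrl file and 8.71% to 11.8% of each sh-Il22ra1 file. The part of these differences in the results was not tested. Among sh-ctrl libraries, replicates 1 and 4 stood apart from the rest on the second principal component (18.2 and 31.9, against -17.7 to -0.126), and replicate 4 had the highest level of its group in 27 of the 50 tested members and replicate 1 in 13.

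Of the 67 members, 50 had enough reads to be tested and 17 did not; 26 of the 50 rose in sh-Il22ra1, 7 fell and 17 did not pass. Over all 13102 genes tested, 25.4% were higher, 26.5% lower and 51.9% past the threshold in either direction, an adjusted p of 0.05 in edgeR's quasi-likelihood test. The median log2 fold change was 0.22 over the tested members and -0.0043 over all tested genes. The groups did not overlap in 14 members that were higher and 3 that were lower, where 13.5% and 14.6% of all tested genes did so (28.1% in either direction). With correction for transcript length and GC content the members called were 25 higher and 12 lower, and the median log2 fold change over all genes was 0.04. The shares over all genes given above are from the fit without this correction, so the corrected counts have no such share beside them. Fewer cells of a kind and less RNA per cell cannot be told apart in these bulk samples, and as the labels do not tell cultures from repeat preparations, each p rests on a spread that may be technical.

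**Figure D1:**
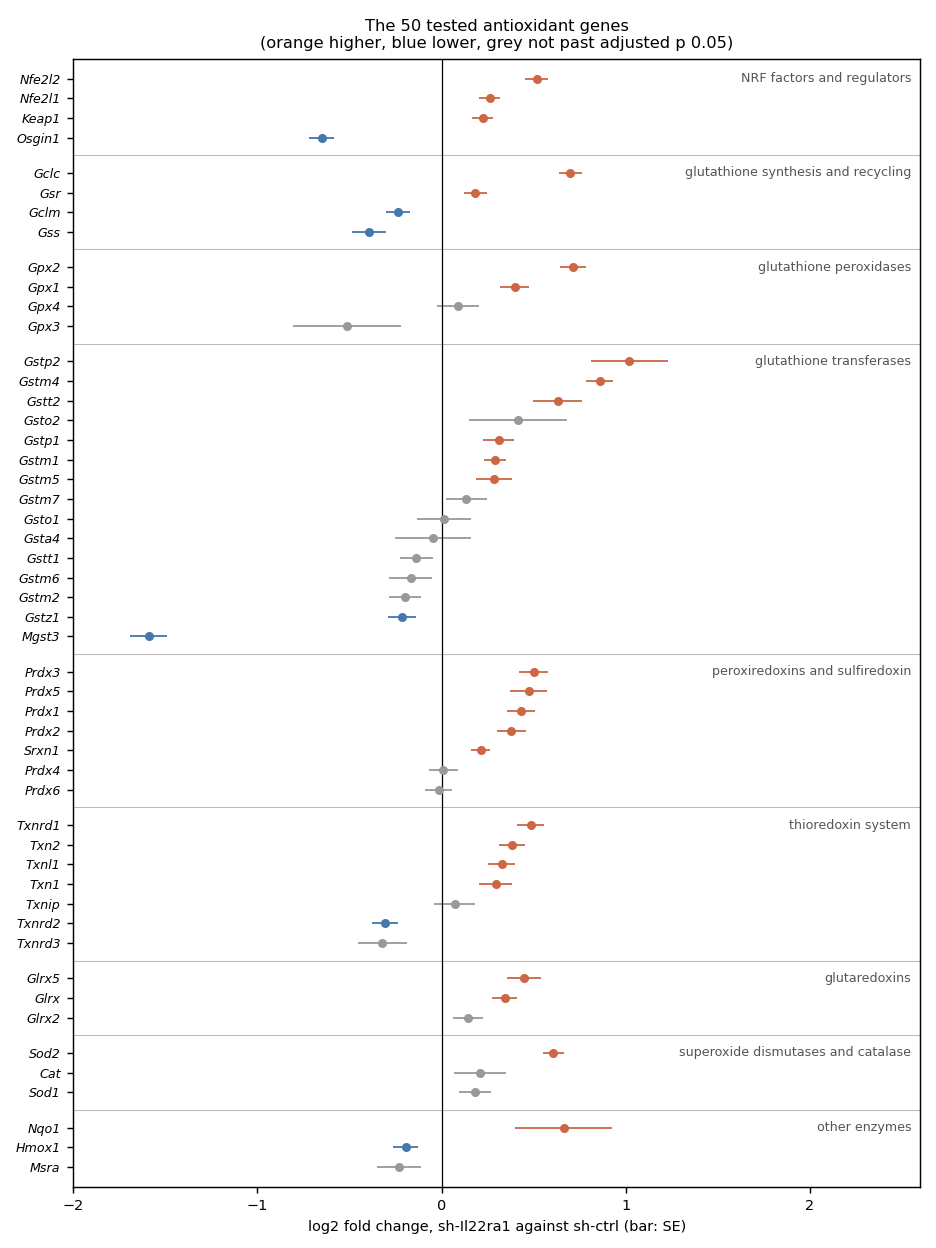
Log2 fold change (x axis, sh-Il22ra1 against sh-ctrl, bar: SE) of each of the 50 tested members (y axis), grouped by family; orange genes were higher, blue lower and grey did not pass. Mgst3 lies farthest left at -1.59, and every gene past the threshold among peroxiredoxins lies to the right of 0.

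Of the 4 genes for NRF factors and regulators, 3 rose and 1 fell, where 25.4% and 26.5% of all tested genes did so. Nfe2l2, on chromosome 2 from 75675513 to 75704641, had 51.3, 53.6 and 57.6 CPM as the lowest, median and highest of the sh-ctrl libraries and 70.8, 77.7 and 85.4 CPM in sh-Il22ra1. CPM are reads per 1e+06 gene reads after TMM scaling. Every sh-Il22ra1 library lay above every sh-ctrl library, and the log2 fold change was 0.52 (SE 0.0616, edgeR adjusted p = 1.54e-06). Keap1, the adaptor that marks NRF2 for destruction, went from 95.2, 98.0 and 111 CPM to 109, 119 and 125 CPM, a rise of 0.22 (SE 0.0575) with groups that overlapped slightly; with the length and GC correction it was 0.38. Keap1 shares 10.9% of its exon bases with a gene on the other strand, Gm16754, and since the strand setting of the counting is not given, their reads cannot be told apart there. Nfe2l1, which encodes NRF1, a related factor known for proteasome genes, had 384, 431 and 473 CPM in sh-ctrl and 488, 524 and 544 CPM in sh-Il22ra1, a rise of 0.26 on the log2 scale (SE 0.0589) without overlap, which was 0.41 with the length and GC correction.

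Osgin1, a growth inhibitor gene known as an NRF2 target, moved the other way. It lies on chromosome 8 from 119434124 to 119446256. Its levels were 44.3, 50.9 and 53.1 CPM in sh-ctrl and 28.9, 31.9 and 34.4 CPM in sh-Il22ra1. All 6 sh-Il22ra1 libraries were below all 6 sh-ctrl libraries, a 1.57-fold fall (log2 fold change -0.65, SE 0.0654, edgeR adjusted p = 1.79e-07). Nqo1 and Hmox1, a quinone reductase and heme oxygenase that are also textbook NRF2 targets, did not share a direction. Hmox1 fell from 223, 248 and 299 CPM to 203, 226 and 234 CPM (-0.19, SE 0.0683), with overlapping groups; its adjusted p ran from 5.1e-05 to 0.0697 over 21 alternatives, DESeq2 and limma-voom among them, and missed the threshold without sh-ctrl replicate 1, without sh-ctrl replicates 1 and 4 together (-0.11), and without sh-Il22ra1 replicate 3. Nqo1 was scarcely detected, at 0.467, 0.655 and 0.778 CPM in sh-ctrl and 0.549, 0.944 and 1.42 CPM in sh-Il22ra1. It was called higher (0.66, SE 0.263, edgeR adjusted p = 0.0421), and under the 20 alternatives that tested it the log2 fold change stayed at 0.54 to 0.77 while the adjusted p ran from 0.0164 to 0.106 and missed the threshold under 13. In sh-ctrl only 3 of its 6 libraries met the cutoff on low counts.

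The enzymes that make glutathione split. Gclc, which encodes the catalytic chain of glutamate-cysteine ligase, the rate-setting enzyme, lies on chromosome 9 from 77754535 to 77794485. It had 38.0, 43.3 and 46.2 CPM in sh-ctrl and 65.2, 69.9 and 73.6 CPM in sh-Il22ra1. The groups were far apart, with a 1.62-fold rise (log2 fold change 0.70, SE 0.0624, edgeR adjusted p = 4.33e-08). Gclm, the modifier subunit of the same enzyme, on chromosome 3 from 122245557 to 122270732, went from 58.1, 69.0 and 76.9 CPM to 53.8, 58.5 and 61.3 CPM. That fall (-0.24, SE 0.0658) came with overlapping groups and ended with the length and GC correction (-0.09; adjusted p 0.000119 to 0.162 over the alternatives). Gss, which adds glycine in the last step, fell from 29.0, 32.0 and 36.7 CPM to 19.4, 25.8 and 28.0 CPM (-0.39, SE 0.0906) without overlap; 15.4% of its exon bases lie within Acss2 on the other strand. Gsr, the reductase that returns oxidised glutathione to its working form, rose by 0.18 (SE 0.0631) with overlapping groups, and its adjusted p (0.0115 to 0.0570 over the alternatives) missed the threshold without sh-ctrl replicate 4 and without sh-Il22ra1 replicate 4.

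Because both subunits are read in the same library, the ratio of their reads does not depend on library scaling. The ratio is not corrected for transcript length and GC content, and with that correction the log2 fold changes were 0.71 for Gclc and -0.09 for Gclm. There were 0.555 to 0.662 Gclc reads per Gclm read in the sh-ctrl libraries, with a median of 0.636. In sh-Il22ra1 there were 1.13 to 1.25, with a median of 1.2, so Gclm reads outnumbered Gclc reads in every sh-ctrl library and Gclc reads outnumbered Gclm reads in every sh-Il22ra1 library. This pair and the other pairs plotted were chosen after the fold changes were seen, so the ratios are a description with no test. Per kb of reference transcript, Gclc and Gclm stood at 12.5 and 12.3 CPM per kb in sh-ctrl and at 20.3 and 10.4 CPM per kb in sh-Il22ra1.

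**Figure D2:**
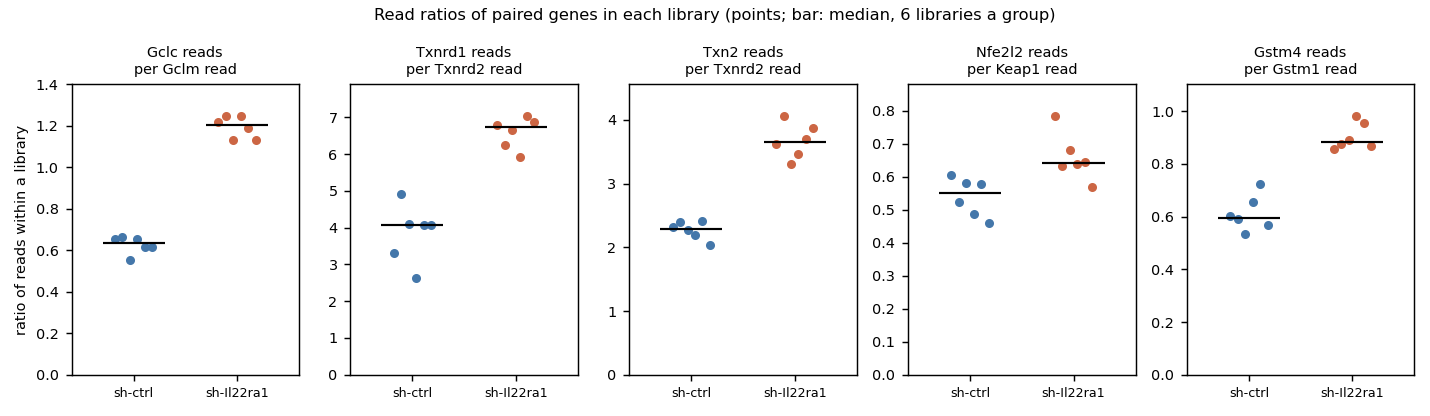
Ratio of the reads of 2 genes within each library (y axis, from 0; points: libraries; bar: median of 6) in sh-ctrl (blue) and sh-Il22ra1 (orange). The groups are apart for Gclc per Gclm (at most 0.662 against at least 1.13), Txnrd1 per Txnrd2, Txn2 per Txnrd2 and Gstm4 per Gstm1, and overlap for Nfe2l2 per Keap1.

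Among the glutathione peroxidases, which reduce peroxides with glutathione, 2 of 4 tested members rose and none fell. With so few genes this count differs little from the 25.4% higher and 26.5% lower over all tested genes. Gpx2, best known from gut epithelium, on chromosome 12 from 76792333 to 76795554, had 79.3, 84.9 and 90.6 CPM in sh-ctrl and 120, 140 and 155 CPM in sh-Il22ra1. No libraries overlapped, and the rise was 1.64-fold (0.71, SE 0.0697, edgeR adjusted p = 1.25e-07); 18.9% of the 50-base stretches of its reference transcript also lie in the pseudogene Gpx2-ps1, which had 1 read in each group. Gpx1, the ubiquitous form, rose from 162, 182 and 224 CPM to 216, 251 and 270 CPM (0.40, SE 0.0789), with a slight overlap. Gpx4, which repairs lipid peroxides in membranes, spread from 431 to 722 CPM in sh-ctrl and from 508 to 654 CPM in sh-Il22ra1 and did not pass (0.09, SE 0.112). Its highest sh-ctrl libraries were replicates 4 and 1, and without both it passed (0.29, edgeR adjusted p = 0.000369; adjusted p 0.000369 to 0.836 over the alternatives); 68.9% of its 50-base stretches recur in other genes. Gpx3, the plasma form, stayed near the detection limit at 0.261 to 1.15 CPM in all 12 libraries and did not pass.

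Glutathione transferases, which join glutathione to reactive molecules, held the largest changes of the module in both directions. Mgst3, a microsomal enzyme with transferase and peroxidase activity, lies on chromosome 1 from 167371966 to 167393841. It had 14.2, 16.5 and 19 CPM in sh-ctrl and 4.70, 5.58 and 6.44 CPM in sh-Il22ra1. Its highest sh-Il22ra1 library was below its lowest sh-ctrl library, a 3.00-fold fall (log2 fold change -1.59, SE 0.101, edgeR adjusted p = 5.11e-10). Mgst1 and Mgst2, the other microsomal members, had at most 6 reads in any library.

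The mu class genes sit side by side on chromosome 3, from Gstm5 (107895821 to 107898686) through Gstm7, Gstm6, Gstm3, Gstm2 and Gstm1 to Gstm4 (108040408 to 108044894), and did not move as a block. Gstm4 had 44.7, 52.1 and 60.0 CPM in sh-ctrl and 88.6, 93.1 and 104 CPM in sh-Il22ra1, a 1.81-fold rise with wide separation (0.86, SE 0.0732, edgeR adjusted p = 2.28e-08). Gstm1, its neighbour, rose by 0.29 (SE 0.0618) without overlap, from a median of 85.7 to 105 CPM. There were 0.534 to 0.722 Gstm4 reads per Gstm1 read in sh-ctrl and 0.855 to 0.983 in sh-Il22ra1. Gstm5 rose by 0.28 (SE 0.0984) with overlap; the rise was 0.15 with the length and GC correction, and its adjusted p ran from 3e-05 to 0.0606 over the alternatives and missed without sh-ctrl replicate 6 and without sh-Il22ra1 replicate 2. Gstm5 shares 13.9% of its exon bases with 4933431E20Rik on the other strand. Gstm2, Gstm6 and Gstm7 did not pass, at -0.20, -0.17 and 0.14, though Gstm2 passed as lower under 4 alternatives (leaving out sh-ctrl replicate 2 or 6, a minimum mean of 1 CPM, and the length and GC correction; adjusted p 0.000238 to 0.239 over all). These paralogs are alike: 23.1% of the 50-base stretches of Gstm1 recur in other genes, 11.8% in Gstm6 and 9.36% in Gstm2, so their reads are uncertain to that extent.

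The pi class genes, adjacent on chromosome 19, both rose. Gstp1, by far the most abundant transferase at 274, 336 and 412 CPM in sh-ctrl, reached 382, 413 and 443 CPM in sh-Il22ra1 (0.31, SE 0.0846), with overlapping groups. Gstp2 went from 0.735, 1.11 and 1.38 CPM to 1.71, 2.09 and 2.93 CPM (1.02, SE 0.210, edgeR adjusted p = 0.000535), without overlap. The pair is near identical, with 72.6% of the 50-base stretches of Gstp2 found in other genes, Gstp1 first, so the reads of the 2 genes are uncertain. Of the theta class, Gstt2 rose from 12.0, 15.0 and 20 CPM to 18.4, 23.7 and 28.6 CPM (0.63, SE 0.132) with overlap, and Gstt1 did not pass (-0.14), except as lower with the length and GC correction. Gstz1, which works in tyrosine breakdown and shares 12.2% of its exon bases with Pomt2 on the other strand, fell by 0.22 (SE 0.0758). Its groups overlapped, and the call ended without sh-Il22ra1 replicate 3 (adjusted p 0.000223 to 0.0596 over the alternatives). Gsta4, Gsto1 and Gsto2 were at or under 7.31 CPM in all libraries and did not pass.

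**Figure D3:**
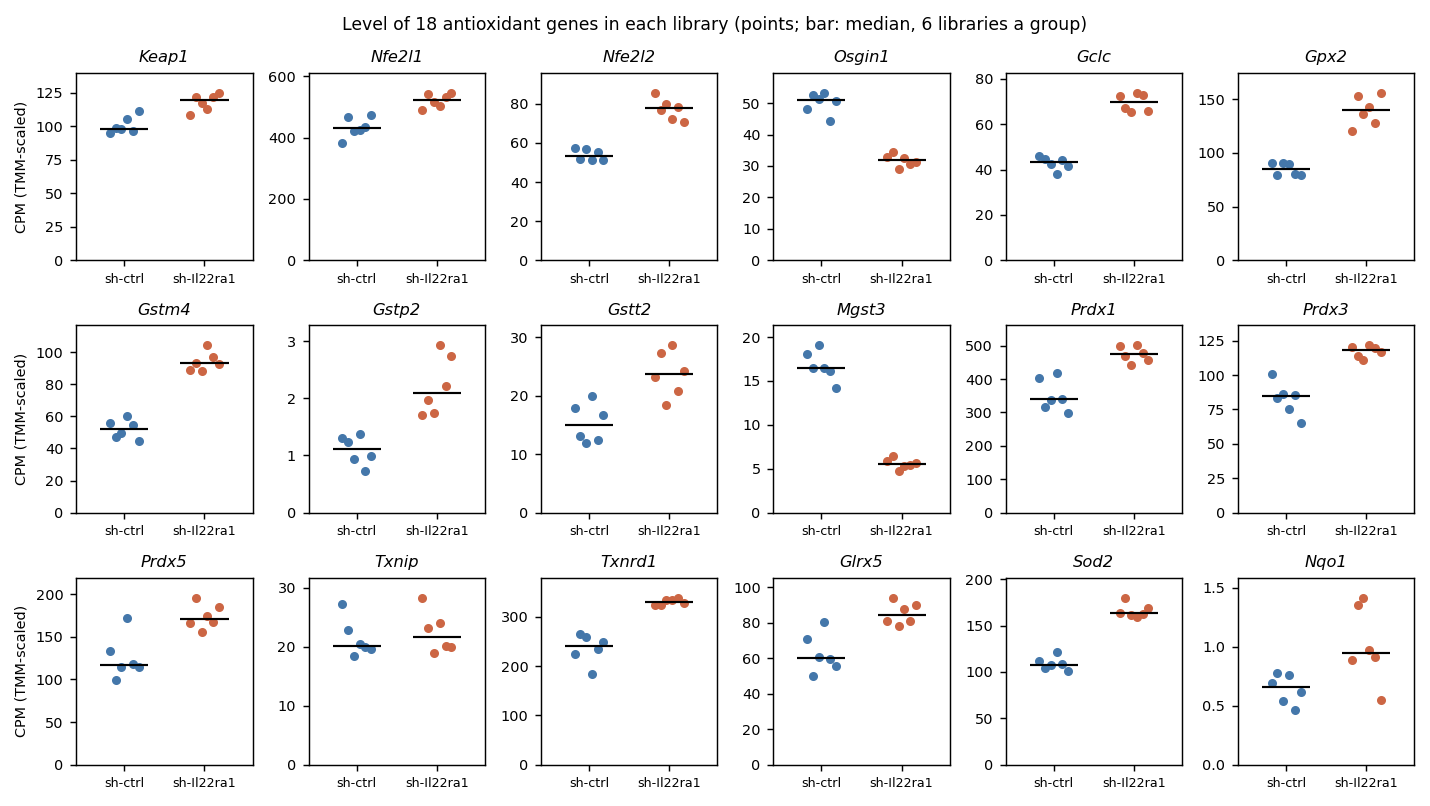
Level of 18 members in each library (y axis, CPM after TMM scaling, from 0; points: libraries; bar: median of 6) in sh-ctrl (blue) and sh-Il22ra1 (orange). Mgst3 and Osgin1 sit lower in every sh-Il22ra1 library, Gclc, Gpx2, Gstm4, Sod2 and Txnrd1 sit higher in every one, and Txnip overlaps.

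Peroxiredoxins, the peroxidases that carry most of the peroxide traffic and are recharged by thioredoxin, rose in 4 of 6 tested cases and none fell. Over all tested genes 25.4% were higher and 26.5% lower. The mitochondrial Prdx3, on chromosome 19 from 60864051 to 60874556, had 65.1, 84.7 and 101 CPM in sh-ctrl and 111, 118 and 121 CPM in sh-Il22ra1. It rose in every library against every control (0.50, SE 0.0792, edgeR adjusted p = 3.99e-05). Prdx1, a cytosolic form, likewise rose without overlap, from 299, 339 and 419 CPM to 443, 475 and 500 CPM (0.43, SE 0.0763). Prdx5, found in mitochondria, peroxisomes and cytosol, went from 99.1, 117 and 172 CPM to 155, 171 and 196 CPM (0.47, SE 0.101), the groups overlapping only through sh-ctrl replicate 4. In Prdx5, 19.1% of the exon bases lie within Trmt112 on the other strand. Prdx2, the other cytosolic form, rose by 0.38 (SE 0.0786) from a median of 446 to 575 CPM with a slight overlap; Rnaseh2a on the other strand covers 11.5% of its exon bases. Pseudogenes and other genes hold 23.8% of the 50-base stretches of Prdx2, 10.9% of those of Prdx1 and 23.1% of those of Sod1.

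Prdx4, the peroxiredoxin of the endoplasmic reticulum, had 266, 321 and 385 CPM in sh-ctrl and 304, 325 and 366 CPM in sh-Il22ra1. Its difference was 0.01 (SE 0.0790) and it did not pass, although it passed as lower with the length and GC correction (-0.13, edgeR adjusted p = 0.0333; adjusted p 0.0333 to 0.983 over the alternatives). Prdx6, which uses glutathione in place of thioredoxin, did not pass either (-0.02, SE 0.0726), at a median of 48.2 and 48.3 CPM. Srxn1, sulfiredoxin, which rescues overoxidised peroxiredoxins and is an NRF2 target, rose by 0.21 (SE 0.0507) from 108, 114 and 117 CPM to 121, 133 and 136 CPM. Its libraries varied least of all tested members in sh-ctrl, with a coefficient of variation of 3.16%, and a small rise kept the groups apart.

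The thioredoxin system differed between its cytosolic and mitochondrial reductases. Txnrd1, the cytosolic reductase, on chromosome 10 from 82833951 to 82897712, had 184, 241 and 266 CPM in sh-ctrl and 324, 331 and 339 CPM in sh-Il22ra1. The lowest value came from sh-ctrl replicate 4, and the groups were apart (0.48, SE 0.0730, edgeR adjusted p = 2.27e-05). Txnrd2, the mitochondrial reductase, on chromosome 16 from 18426384 to 18479073, fell from 54.3, 62.3 and 70.1 CPM to 47.8, 49.2 and 56.2 CPM (-0.31, SE 0.0706), with a narrow overlap. Their read ratio went from 2.62 to 4.91 Txnrd1 reads per Txnrd2 read in sh-ctrl to 5.93 to 7.05 in sh-Il22ra1.

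Txn2, the mitochondrial thioredoxin that Txnrd2 recharges, rose without overlap from 125, 142 and 157 CPM to 166, 181 and 210 CPM (0.38, SE 0.0703). Thus 2.03 to 2.42 Txn2 reads were found per Txnrd2 read in sh-ctrl and 3.31 to 4.07 in sh-Il22ra1. Txn1, the cytosolic thioredoxin, rose by 0.29 (SE 0.0896; 0.16 with the length and GC correction) with overlap, its highest sh-ctrl library again being replicate 4. Txnl1, a thioredoxin-like protein of the proteasome, rose by 0.33 (SE 0.0741) with overlap. Txnrd3, a reductase best known from testis, was low and just missed the threshold (-0.32, SE 0.133, edgeR adjusted p = 0.0507), and passed as lower under 6 of 21 alternatives (adjusted p 0.0254 to 0.192).

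Txnip, which binds and blocks thioredoxin and is strongly induced by glucose in beta cells, did not pass. It had 18.4, 20.2 and 27.2 CPM in sh-ctrl and 19, 21.7 and 28.4 CPM in sh-Il22ra1, and the groups covered the same range. The log2 fold change was 0.07 (SE 0.109, edgeR adjusted p = 0.613). Gm15441 on the other strand covers 19.4% of its exon bases. Glutaredoxins, which use glutathione to reduce mixed disulfides, rose in 2 of 3 tested cases, against 25.4% of all tested genes. Glrx5, needed for mitochondrial iron-sulfur clusters, went from 50, 60.0 and 80.1 CPM to 77.9, 84.6 and 94.1 CPM (0.45, SE 0.0933), with overlap through sh-ctrl replicate 4. Glrx, the cytosolic form, rose by 0.34 (SE 0.0698) without overlap, and by 0.22 with the length and GC correction. Glrx2 gave 0.14 (SE 0.0805) and did not pass, but passed as higher without sh-ctrl replicate 4 and without replicates 1 and 4 together (adjusted p 0.00864 to 0.277 over the alternatives).

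Of the superoxide dismutases, the mitochondrial one rose. Sod2, on chromosome 17 from 13006846 to 13040063, had 100, 108 and 122 CPM in sh-ctrl and 159, 163 and 180 CPM in sh-Il22ra1. The groups were clearly apart, a 1.52-fold rise (0.61, SE 0.0568, edgeR adjusted p = 7.96e-08). Sod1, the cytosolic copper-zinc enzyme, spread from 480 to 728 CPM in sh-ctrl and from 608 to 732 CPM in sh-Il22ra1 and did not pass (0.18, SE 0.0875). Its highest sh-ctrl library was replicate 4; Sod1 passed as higher without that library (0.25) and without replicates 1 and 4 together (0.30), with adjusted p of 8.5e-05 to 0.264 over the alternatives. Cat, the catalase of peroxisomes, was low in both groups, at 3.63, 4.15 and 5.77 CPM in sh-ctrl and 3.84, 5.31 and 5.82 CPM in sh-Il22ra1, and did not pass (0.21, SE 0.143). Msra, which reduces oxidised methionine, did not pass (-0.23, SE 0.119) but did as lower without sh-ctrl replicate 6 and with the length and GC correction (adjusted p 0.0158 to 0.588 over the alternatives).

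Levels between genes were compared per kb of the reference transcript. In sh-ctrl, Sod1 stood highest at 893 CPM per kb, followed by Gpx4 at 566, Gstp1 at 408, Prdx4 at 330 and Prdx2 at 278 CPM per kb. Catalase stood at 1.67 and Nqo1 at 0.414 CPM per kb, near the bottom. Gpx1, at 176 CPM per kb, was the sixth highest. Sod2, whose reference transcript has 5861 bases, stood at 18.6 CPM per kb, and this order depends on the transcript chosen for each gene. The 17 members that were not tested had at most 14 reads in any library: Glrx3, Gpx2-ps1, Gpx5, Gpx6, Gpx7, Gpx8, Gsta1, Gsta2, Gsta3, Gstk1, Gstm3, Gstt3, Gstt4, Mgst1, Mgst2, Prdx6b and Sod3. Of Glrx3, a cytosolic iron-sulfur carrier, 45.4% of the 50-base stretches also lie in Gm12669, and of Gsta1 89.7% lie in other genes, so their counts are uncertain. Gpx7 and Gpx8, the peroxidases of the endoplasmic reticulum, had 9 and 2 reads over all 12 libraries.

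**Figure D4:**
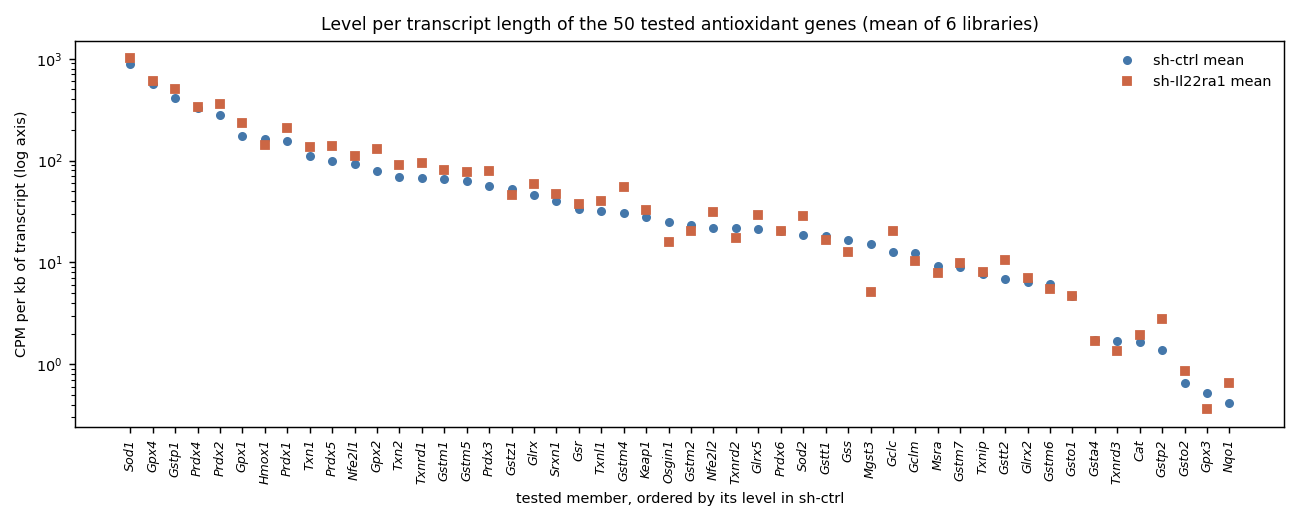
Mean level per kb of reference transcript (y axis, log scale, 6 libraries a group) of the 50 tested members, ordered by sh-ctrl (x axis; blue circles sh-ctrl, orange squares sh-Il22ra1). Levels run from 893 CPM per kb for Sod1 to 0.414 for Nqo1 in sh-ctrl, and the widest gap between groups is in Mgst3.

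Genes around the module were followed in 8 lists, of whose 172 genes 150 were tested: 44 were higher (29.3%), 38 lower (25.3%) and 68 did not pass, against 25.4% higher and 26.5% lower over all genes. The supply of cysteine, the scarce building block of glutathione, had 6 of 12 genes higher and 2 lower. Slc3a2, the heavy chain of the cystine and other amino acid transporters, rose from 954, 1020 and 1120 CPM to 1350, 1460 and 1520 CPM (0.49, SE 0.0581), and the glutamine carrier gene Slc1a5 rose (0.69, SE 0.0739), both without overlap. Cbs, the first enzyme of the route from homocysteine to cysteine, fell from 216, 236 and 253 CPM to 127, 144 and 151 CPM (-0.74, SE 0.0645), while Cth, the second, rose (0.72). Slc7a11, the cystine-specific chain, gave 0.09 and did not pass; it and Cth were picked after their values were seen.

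Breakdown and export of glutathione had 3 of 13 tested genes higher (23.1%) and 5 lower (38.5%), against 25.4% and 26.5% over all tested genes. The gamma-glutamyl transferase genes Ggt5 (-1.13, SE 0.103) and Ggt7 (-0.33, SE 0.0588) fell and the transporter gene Abcc5 rose (0.57, SE 0.0974). NADPH supply went both ways, with 6 of 19 higher and 6 lower: Pgd of the pentose phosphate pathway (0.34) and Idh1 (0.28) rose, and the folate enzyme gene Mthfd1l fell (-0.28). Among partners and other known targets of NRF2, 9 of 32 tested were higher (28.1%) and 8 lower (25%), close to the shares over all genes. Btrc, which encodes a KEAP1-independent ligase adaptor for NRF2, rose (0.45), the porphyrin transporter gene Abcb6 rose (0.48), and Slc48a1, a heme transporter gene, fell from 61.1, 71.1 and 74.0 CPM to 31.8, 38.1 and 41.9 CPM (-0.90, SE 0.0789). Abcb6 shares 55.2% of its exon bases with Gm29253, which leaves its reads uncertain.

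Of genes for selenoproteins and their synthesis, 6 of 21 were higher (28.6%) and 5 lower (23.8%), close to the 25.4% and 26.5% over all tested genes. Sepn1, a selenoprotein of the endoplasmic reticulum, fell from 91.9, 112 and 135 CPM to 43.1, 47.4 and 52.1 CPM (-1.22, SE 0.0876, edgeR adjusted p = 2.38e-09), Sephs1 fell (-0.84, SE 0.0647) and Pstk, a kinase in making selenocysteine tRNA, rose (0.60), though 58.8% of its exon bases are shared, mostly with Ikzf5. The list of methionine sulfoxide, protein and aldehyde repair had 9 of 33 tested genes higher (27.3%) and 7 lower (21.2%), also close to the shares over all genes. In it the sestrin gene Sesn2 rose (0.53), the fatty aldehyde dehydrogenase gene Aldh3a2 rose (0.59) and the disulfide isomerase gene Txndc5 fell (-0.46). Metal chaperones and other superoxide handling had 1 of 11 higher and 4 lower, with the zinc and manganese importer gene Slc39a8 down from 16.4, 19.1 and 21 CPM to 6.50, 8.38 and 9.12 CPM (-1.23, SE 0.0974), Coq10b down (-0.48) and the copper chaperone gene Atox1 up (0.48). Of 25 sources of superoxide and peroxide only 10 had enough reads: 4 were higher and 1 lower, with the monoamine oxidase genes Maoa up (0.60) and Maob down (-0.32), and Nos3 up from a median of 1.72 to 3.45 CPM (1.02), with 32.3% of its exon bases shared with Gm15587 on the other strand. All genes named from these lists had an adjusted p of at most 0.00147 in the same edgeR test, apart from Slc7a11. Exon bases shared with a gene on the other strand were 11.9% in Txndc5 (Gm31834), 7.14% in Coq10b (E330011M16Rik) and 6.04% in Ggt7 (Acss2).

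**Figure D5:**
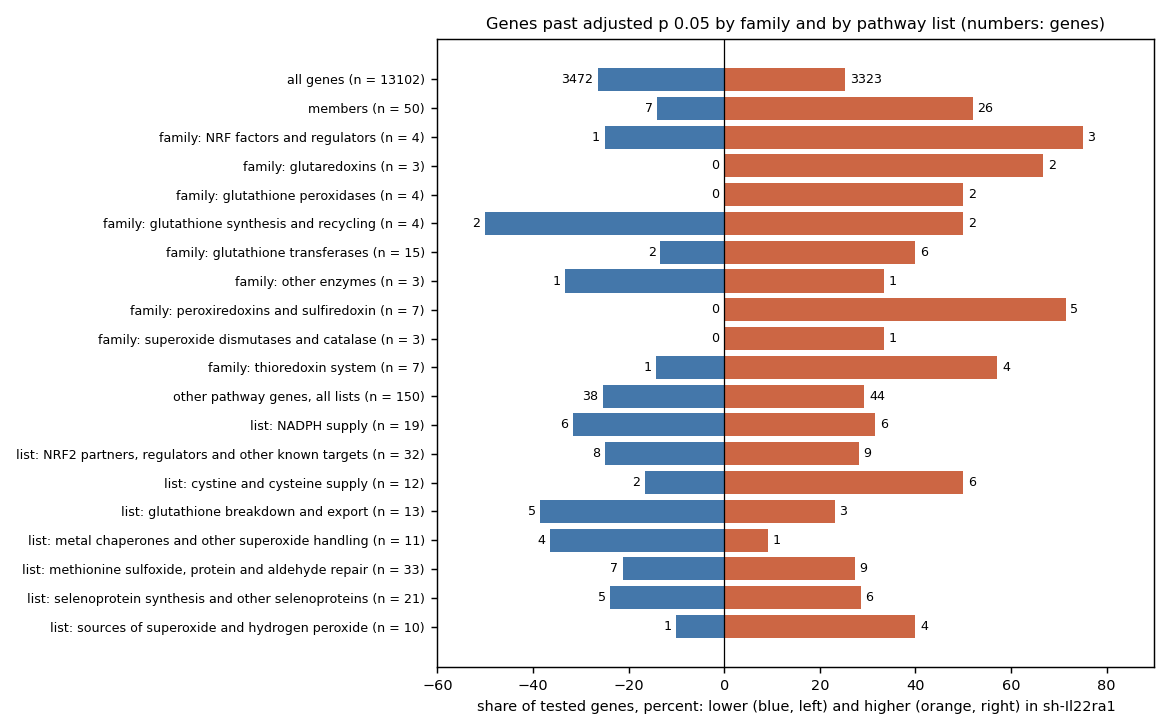
Share of tested genes past the threshold (x axis, percent; right and orange: higher in sh-Il22ra1; left and blue: lower; numbers: genes) for all genes, the members, each family and each pathway list (y axis, n: tested genes). The members show 26 higher and 7 lower of 50, and all genes 3323 higher and 3472 lower of 13102.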

How the data were processed

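Total RNA of 12 Min6 samples was sequenced as paired ends, per the labels' protocols. The deposited files hold raw read counts per gene symbol, one file per library; HISAT2 2.0.5, HTSeq and mm10 are named in the submitters' processing notes, while the annotation and the strand setting were not stated there or in the labels. The 5 HTSeq summary rows, 23.5% to 31.7% of each file, stayed out of totals and tests. Counts were fitted in R 4.3.3 with edgeR 4.0.16: filterByExpr (minimum count 10, minimum total 15) left 13102 genes, libraries were scaled by TMM, and groups were compared by the two-sided quasi-likelihood test with no covariate and Benjamini-Hochberg adjustment over all tested genes; the code was tested on simulated data. There it recovered 50% of 1.3-fold, 68% of 1.5-fold, 94% of 2-fold and 100% of 4-fold changes. Far fewer genes were changed in that simulation than passed here, so these shares need not hold for the data. The SE is the log2 fold change over the square root of F. The members and lists were chosen with earlier results of these data known. Named genes are the 5 given with the module, Nfe2l1, Keap1, called members with a log2 fold change of at least 0.4 in size, and up to 3 called genes of smallest p per list. Alternatives were RLE scaling, scaling without Ins2, Iapp and Rn45s, DESeq2 1.42.0, limma-voom (limma 3.58.1), no filter, a mean of at least 1 CPM, the replicate number as a block, leaving out libraries, and spline offsets on transcript length and GC content. Positions, transcript lengths and exon overlaps are from GENCODE M21 on GRCm38 (mm10), which matched all 67 members. Of the listed genes, 13 are under older symbols in the files. Within groups every pair of libraries differed beyond sampling noise (chi-square per degree of freedom at least 3.98).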

Additional observations from a re-analysis of the deposited data

Results flagged for a closer look

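In 148 groups of 6 libraries (tested members and named genes, each group on its own), 3 had a library far from the others by Dixon's criterion; chance flags about 1 in 20 groups. Gstz1 was at 102 CPM in sh-ctrl replicate 4, with the next library at 87.1 CPM. Txnl1 was at 153 CPM in sh-Il22ra1 replicate 2, below the next at 175 CPM. Gpx3 was at 0.261 CPM in sh-Il22ra1 replicate 5, below the next at 0.610 CPM, where few reads stand behind each value.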

How the results depend on the processing

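Of the 33 members past the threshold, 27 kept their call and direction under all 21 alternatives; the exceptions were Gclm, Gsr, Gstm5, Gstz1, Hmox1 and Nqo1. The count of members called higher ran from 24 to 27 and of those called lower from 5 to 10 when 1 library was left out, and was 28 and 6 without sh-ctrl replicates 1 and 4 together. With correction for transcript length and GC content, 12 members were lower in place of 7. Gclm left that set and Gstm2, Gstm6, Gstt1, Msra, Prdx4 and Txnrd3 joined it. The cause was not tested, and no share over all genes is given for that fit. Txnip changed sign without sh-Il22ra1 replicate 1 (-0.0057, within -0.0057 to 0.149 when 1 library was left out) and passed the threshold under none of the alternatives. With the replicate number as a block, 25 members were higher and 7 lower, and the only member whose call changed was Nqo1. No label says that equal numbers pair the samples. Between equal numbers, deviations from the group means correlated at -0.0328 to 0.229, and 1 of 6 sh-ctrl libraries was closest to its own number. These values show no strong pairing and cannot exclude a weak one. Depth limits Nqo1, Gpx3, Gsto2, Gstp2 and the 17 untested members.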
